A study of Mus musculus with 30 samples.

Results

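The collagen gene family is described here in IDG-SW3 cells, a mouse line of late osteoblasts that becomes osteocyte-like in culture. Its members were taken by name alone, as every gene symbol in the files made of Col, a type number, the letter a and a chain number. This gave 42 genes of 25520 symbols in untreated cells and the same 42 of 25410 symbols in a hormone experiment. By the kind of collagen they encode, 11 are fibrillar, 9 network-forming, 9 FACIT (fibril-associated, with interrupted triple helices), 4 transmembrane and 9 of other kinds. RNA was sequenced after ribosomal RNA depletion from 30 libraries, 3 per group, which the submitters call biological triplicates. Treated cells received 100 nM 1,25-dihydroxyvitamin D3 (1,25D3, the hormonal form of vitamin D) for 24 h at day 3 or day 35 of differentiation, and their vehicle cells received ethanol for the same time on the same days. A separate set of untreated cells was collected on day 3, weekly between days 7 and 28, and on day 35. All groups share 1 cell line, conditionally immortalised, so it grows at 33 °C with interferon-gamma and stops on transfer to 37 °C without it, and all were cultured on collagen IV coated plates in ascorbic acid and beta-glycerophosphate.

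Collagens are the scaffold proteins of bone. Each molecule is a triple helix of alpha chains, 1 gene per chain, so the chains that share a type number usually assemble together. Fibrillar collagens are secreted as precursors, trimmed and cross-linked into fibrils, and type I is the main protein of bone matrix. Network collagens build sheets such as basement membranes, FACIT collagens sit on the surface of fibrils, and transmembrane collagens are anchored in the cell membrane. Osteoblasts lay the fibrils down and then mineralise them, and some of these cells become the osteocytes enclosed in the matrix.

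Of the 6 members that changed with 1,25D3 at day 35, 5 have a window of RefSeq promoter sequence (GRCm38.p6) that lies at least partly outside the annotated gene, and these bases are shown because the hormone results turn on these genes. The windows end at the annotated gene start. Capitals mark letters that match a searched motif on either strand, which were the TATA box (TATAAA), the CCAAT box (CCAAT), the GC box (GGGCGG), a RUNX site (TGTGGT), an AP-1 site (TGAGTCA) and a vitamin D receptor half-site, which was read as AGGTCA, with its variant spellings GGGTCA, also AGTTCA, and lastly GGTTCA. *Col13a1* encodes a transmembrane collagen (chr10:61979207-61979358, minus strand), and *Col5a1* (chr2:27886175-27886380) and *Col11a1* (chr3:114030290-114030478) encode minor fibrillar chains. *Col8a2* (chr4:126286544-126286793) encodes a short-chain network collagen and *Col16a1* (chr4:130047590-130047816) a FACIT collagen, the last 4 being on the plus strand.
Col13a1: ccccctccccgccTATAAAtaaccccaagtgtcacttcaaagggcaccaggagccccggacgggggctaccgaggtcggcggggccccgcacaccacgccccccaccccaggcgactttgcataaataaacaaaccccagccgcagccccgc
Col5a1: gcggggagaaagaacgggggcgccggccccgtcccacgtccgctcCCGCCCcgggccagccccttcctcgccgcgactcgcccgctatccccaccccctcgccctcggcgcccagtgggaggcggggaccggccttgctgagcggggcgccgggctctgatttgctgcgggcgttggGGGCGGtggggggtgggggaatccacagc
Col11a1: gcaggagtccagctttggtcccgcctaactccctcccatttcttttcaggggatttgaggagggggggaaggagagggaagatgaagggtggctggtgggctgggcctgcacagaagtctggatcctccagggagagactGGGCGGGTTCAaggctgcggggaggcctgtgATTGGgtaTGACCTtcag
Col8a2: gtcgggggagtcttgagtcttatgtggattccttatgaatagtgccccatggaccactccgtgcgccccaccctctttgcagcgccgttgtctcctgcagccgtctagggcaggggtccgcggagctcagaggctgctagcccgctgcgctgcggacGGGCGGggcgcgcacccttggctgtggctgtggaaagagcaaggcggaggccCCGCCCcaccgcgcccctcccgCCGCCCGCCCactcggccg
Col16a1: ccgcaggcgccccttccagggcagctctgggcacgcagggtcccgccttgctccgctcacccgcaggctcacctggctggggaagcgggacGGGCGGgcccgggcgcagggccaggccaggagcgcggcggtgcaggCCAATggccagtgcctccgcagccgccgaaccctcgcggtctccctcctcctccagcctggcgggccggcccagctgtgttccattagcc

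Over the whole 250 bases before each start, 37 promoters of 34 collagen genes were in the table. The GC box was in 21 of them and in 32.7% of all 32851 promoters. The CCAAT box was in 13 (33.8% of all promoters), the vitamin D receptor half-site in 13 (38.6%), the TATA box in 5 (12.4%), the RUNX site in 3 (14%) and the AP-1 site in 1 (4.46%). Pairs of half-sites in the same direction, 3 bases apart, were in 0 of the collagen promoters and in 0.0396% of all promoters. These are matches of letters and not binding sites.

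Untreated cells were listed in RPKM (reads per kilobase of transcript, scaled to sequencing depth), and changes are on the scale of log2(RPKM + 0.5), ± SE from limma. Of the 42 members, 23 reached at least 1 RPKM in at least 3 libraries and were tested among 9933 genes, 16 stayed below that and 3 (*Col4a3*, *Col9a1* and *Col19a1*) were listed at 0 in every library. The median gene of all those tested was lower by 0.69 (log2) at day 35 than at day 3, so each library was also centred on its own median gene, and a gene is said to have risen or fallen only where both scales called it in the same direction (adjusted p below 0.05). In the hormone experiment, values are CPM (counts scaled to library size with TMM factors) from libraries of 22062866 to 54325515 counts, tested with edgeR among 20055 genes, and all 42 members passed its filter. The ± of log2 changes there is an approximate SE, the absolute log2 change over the square root of the edgeR F statistic. It is least reliable where a group held few counts. In 4 of the 12 libraries, the 3 of day 3 cells given 1,25D3 and replicate 2 of day 35 cells given 1,25D3, olfactory receptor genes took 0.0425% to 0.0734% of counts, against 0.00273% to 0.0149% in the others. The 2 experiments share no libraries and used different library kits. Replicate 1 of every untreated day came from 1 sequencing run and the others from 3 more runs. Replicates 2 and 3 of day 35 came from a run that held no other day, so for them day and run cannot be told apart. Those of days 14, 21 and 28 shared a run that held no day 3 library. Against day 3, these days are compared within 1 run only by replicate 1. The main fits had no term for run. Changes within the run of replicate 1 are given for *Col1a1*, *Col1a2*, *Col3a1*, *Col5a3*, *Col6a1*, *Col6a3*, *Col8a2* and *Col16a1*.

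The fibrillar chains parted into those that rose late and those that fell. At day 35 against day 3, 3 of the 11 fibrillar genes rose (*Col1a1*, *Col2a1* and *Col11a2*), 4 fell (*Col3a1*, *Col5a1*, *Col5a3* and *Col27a1*) and 4 met neither condition on both scales. Over all 23 members tested, 3 rose and 9 fell at day 35, beside 5.63% of all genes higher and 21.5% lower by the same rule. With the values as listed alone, 17 members were called (3 higher, 14 lower) where 57.1% of all genes were, 51.5% being lower. With centred libraries 17 were called as well, 8 of them higher (29.5% of all genes) and 9 lower (21.5%). The median member changed by -1.07 as listed and by -0.25 after centring, beside -0.69 and 0.14 for all genes.

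*Col1a1* encodes the chain that fills 2 of the 3 places in type I collagen, and *Col1a2* encodes the third. *Col1a1* stood at 329.9, 191 and 262 RPKM in the 3 day 35 libraries, against 132, 111 and 95.1 RPKM at day 3. Every day 35 library was above every day 3 library, and the change was 1.18 ± 0.24 (adjusted p = 0.00039), with 1.32 within the run of replicate 1. The course was not a steady climb, for the means were 113, 70.7, 70.3, 82.2, 198 and 261 RPKM over the 6 days. The step between days 21 and 28 was 1.26 ± 0.24 (adjusted p = 0.0080), the one step of *Col1a1* after day 7 that was called on both scales. *Col1a2* stood at 96.0, 59.5 and 45.1 RPKM at day 35, against 50.9, 45.2 and 47.8 RPKM at day 3. These groups overlap, and the change of 0.41 ± 0.25 was not called as listed (adjusted p = 0.16) but was called after centring, at 1.23 (adjusted p = 3.1e-06). With sequencing run as a term of the limma fit it was 0.90 (adjusted p = 0.032), and within the run of replicate 1 it was 0.91. The ratio of *Col1a1* to *Col1a2* RPKM was 3.44, 3.20 and 5.80 at day 35, against 2.60, 2.46 and 1.99 at day 3. An exact permutation test of that ratio, two-sided, gave p = 0.1, the smallest that 3 libraries against 3 allow. In vehicle cells the ratio per length was 0.344, 0.207 and 0.199 at day 35 and 0.195, 0.551 and 0.293 at day 3. Those groups overlap.

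**Figure D1:**
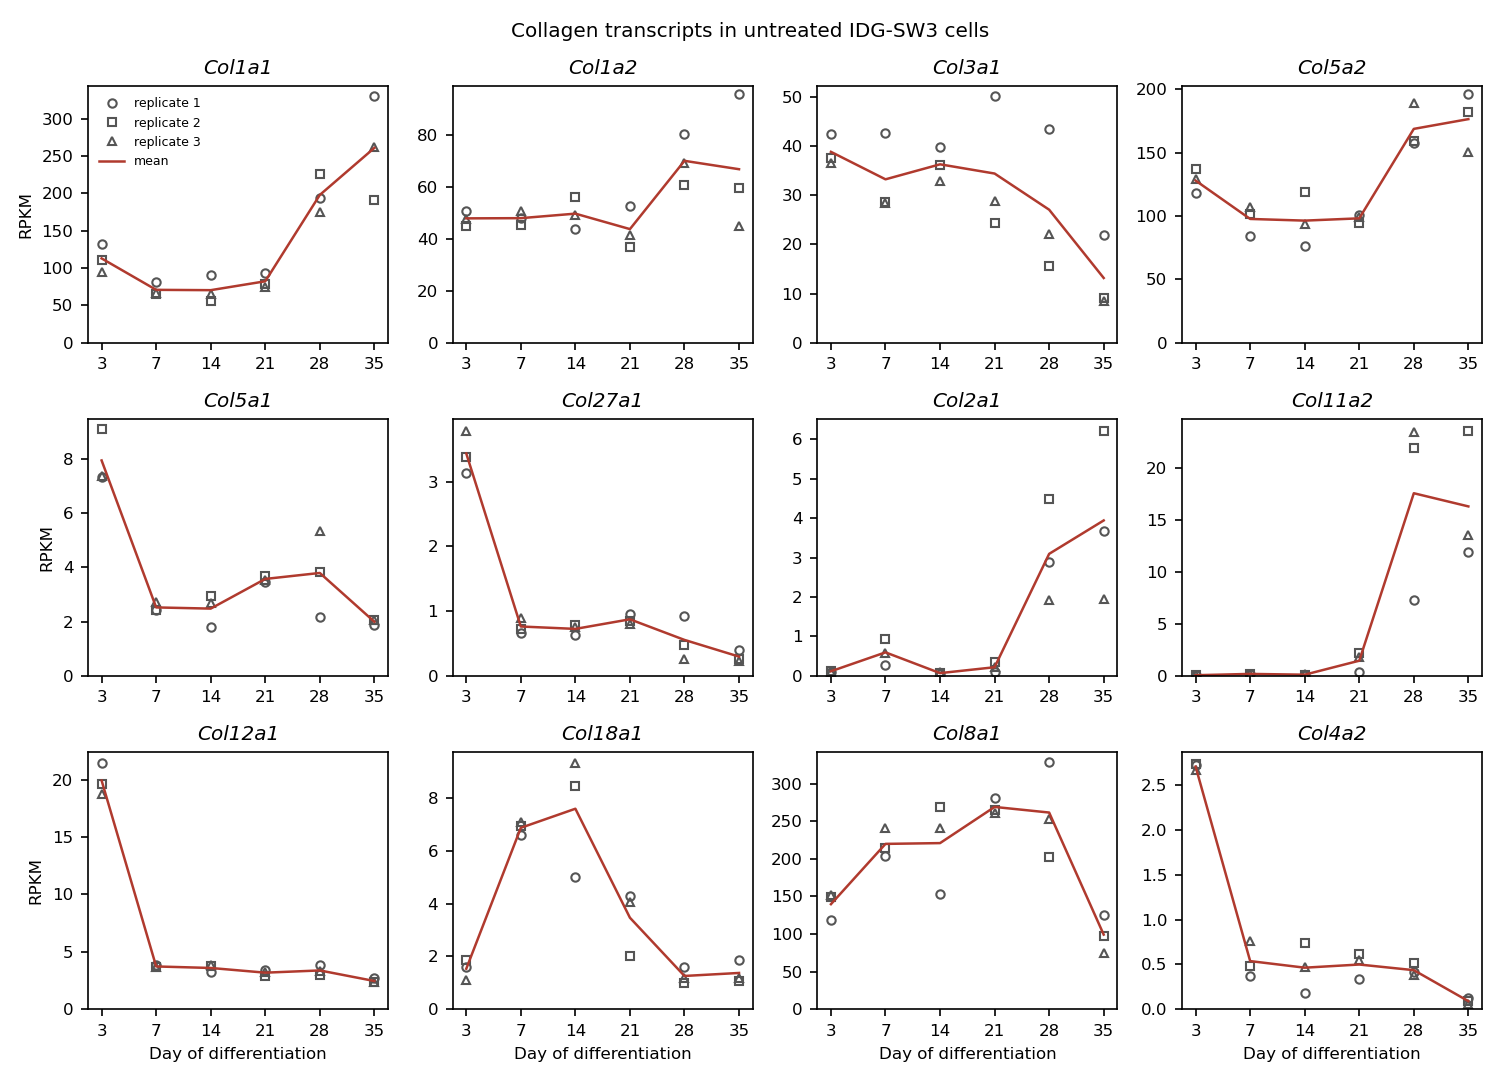
RPKM (y axis, from 0) over the 6 days of differentiation (x axis, evenly spaced) for 12 collagen genes in untreated cells, with a symbol for each of the 3 libraries per day and a line through the means. *Col1a1*, *Col2a1* and *Col11a2* are highest at day 28 or 35, *Col12a1*, *Col27a1* and *Col4a2* are already low at day 7, and *Col18a1* is high at days 7 and 14.

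The largest increases were of chains better known from cartilage fibrils. *Col11a2*, which encodes a chain of type XI collagen, was at 11.9, 23.6 and 13.5 RPKM at day 35, against 0.062, 0.069 and 0.055 RPKM at day 3. The change was 4.84 ± 0.39 (adjusted p = 7.5e-09), and it was in place by day 28, when the mean was 17.6 ± 8.95 RPKM (SD, n = 3). It was first called at day 21 (1.64 ± 0.39, adjusted p = 0.0027), where the replicate 1 library had 0.359 RPKM and the others 2.25 and 1.78. *Col2a1*, the chain of type II collagen, was at 3.69, 6.21 and 1.94 RPKM at day 35, against 0.109, 0.133 and 0.107 RPKM at day 3 (2.73 ± 0.31, adjusted p = 4.4e-07). Its step between days 21 and 28 was 2.27 ± 0.31 (adjusted p = 0.00033), and that of *Col11a2* was 3.21 ± 0.39 (adjusted p = 0.00012). *Col11a1*, the other type XI chain, did not rise with them, at 1.51 ± 0.26 RPKM on day 35 and 2.45 ± 0.30 RPKM on day 3 (SD, n = 3 each), a change of -0.55 as listed and 0.27 after centring.

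Chondrocyte markers outside the collagens moved in both directions beside these genes. The 10 listed markers summed to 8.59 to 11.9 RPKM per library at day 35 and to 9.19 to 16.8 RPKM at day 3, with *Matn1* and *Ucma* at 0 on both days. *Comp*, a cartilage and tendon matrix protein, was at 5.48 ± 1.59 RPKM on day 35 and 1.31 ± 0.461 RPKM on day 3. *Acan*, the cartilage proteoglycan, was at 0.333 ± 0.139 RPKM on day 35 and 0.00433 ± 0.00751 RPKM on day 3, while *Sox9*, a transcription factor of chondrocytes, was at 2.28 ± 0.505 and 11.1 ± 3.03 RPKM on those days (SD, n = 3 each). The part of such cells in the rise was not tested. In bulk RNA, more cells of a kind and more RNA per cell cannot be told apart.

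*Col3a1* and *Col27a1* fell. *Col3a1*, the chain of the thin fibrils of soft tissues, was at 21.9, 9.11 and 8.47 RPKM at day 35, against 42.4, 37.6 and 36.7 RPKM at day 3 (-1.66 ± 0.36, adjusted p = 0.00071). Within the run of replicate 1, *Col3a1* changed by -0.94. Its mean was 27.1 ± 14.5 RPKM at day 28 (SD, n = 3), where the libraries ran between 15.6 and 43.5 RPKM, and the replicate 1 library was above the other libraries on all 6 days. That day 28 change was -0.64, called with the replicate number as a block (adjusted p = 0.040) and not without it (adjusted p = 0.17). *Col27a1*, a minor fibrillar chain, was at 0.298 ± 0.094 RPKM on day 35 and 3.44 ± 0.33 RPKM on day 3, and it had already changed by -1.64 ± 0.21 at day 7 (adjusted p = 1.45e-05). *Col24a1*, a minor fibrillar chain expressed in bone, was at 0.646 ± 0.274 RPKM on day 35 and 2.13 ± 0.0871 RPKM on day 3, a change called as listed (-1.23, adjusted p = 0.000102) but not after centring (-0.40, adjusted p = 0.098).

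The chains of type V, which helps set the width of type I fibrils, went different ways. *Col5a1* was at 1.88, 2.04 and 2.06 RPKM at day 35, against 7.33, 9.09 and 7.38 RPKM at day 3 (-1.75 ± 0.24, adjusted p = 4.8e-06), and it was at 2.52 ± 0.18 RPKM by day 7. *Col5a3* was at 0.519 ± 0.131 RPKM on day 35 and 3.32 ± 0.25 RPKM on day 3 (-1.91 ± 0.24, adjusted p = 1.2e-06). *Col5a2* was at 197, 182 and 151 RPKM at day 35, against 118, 137 and 129 RPKM at day 3, with no overlap. That change of 0.46 ± 0.21 was called only after centring (1.28, adjusted p = 1.4e-06). The ratio of *Col5a2* to *Col5a1* RPKM was 104.8, 89.2 and 73.0 at day 35 and 16.1, 15.0 and 17.5 at day 3 (exact permutation test, two-sided p = 0.1, the smallest that 3 against 3 allow). In the vehicle cells of the hormone experiment this ratio, per length, was 4.19, 4.51 and 5.16 at day 35 and 5.25, 3.08 and 4.77 at day 3. There the groups overlap (exact permutation test, two-sided p = 0.9).

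**Figure D2:**
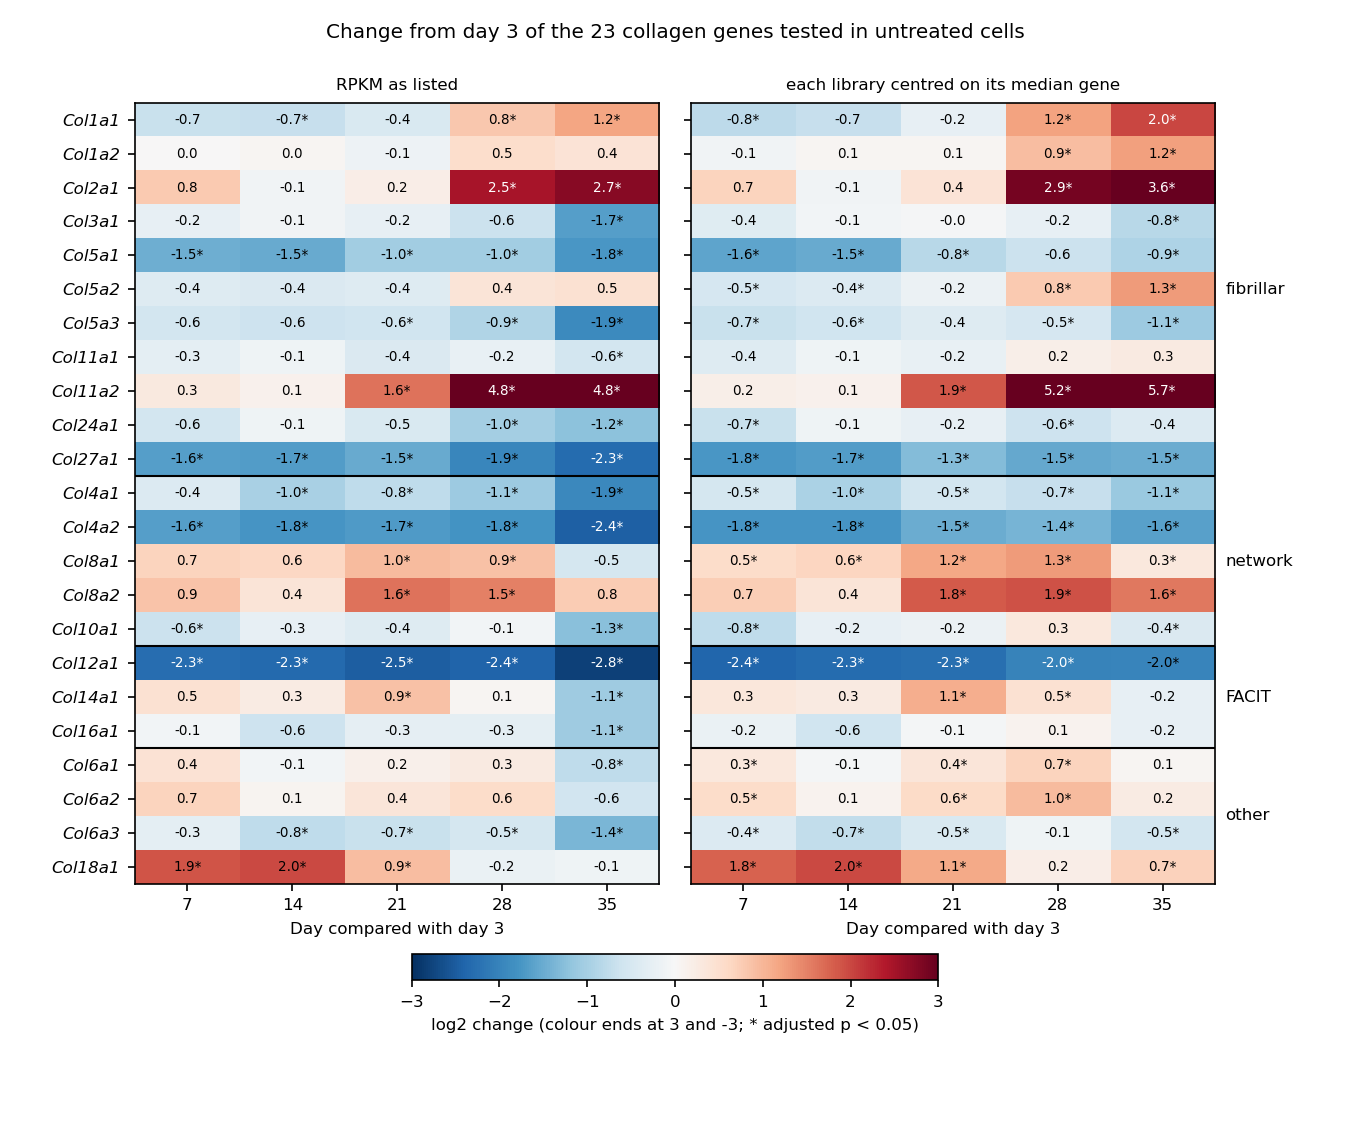
log2 change from day 3 (colour and printed value; an asterisk marks an adjusted p below 0.05) on each later day (columns) for the 23 collagen genes tested in untreated cells (rows, grouped by class), from the RPKM as listed on the left and after centring each library on its median gene on the right. *Col12a1*, *Col4a2* and *Col27a1* are marked lower on all 5 later days on both sides, whereas *Col1a2*, *Col5a2* and *Col6a2* carry asterisks only on the right.

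Among the network collagens, the basement membrane chains fell and the short-chain type VIII was high in mid-course. Of the 5 network genes tested, 0 rose and 3 fell at day 35 (*Col4a1*, *Col4a2* and *Col10a1*). *Col4a2* was at 0.12, 0.092 and 0.054 RPKM at day 35, against 2.72, 2.73 and 2.67 RPKM at day 3 (-2.45 ± 0.21, adjusted p = 1.3e-08). At day 7 it was already at 0.37, 0.482 and 0.757 RPKM (-1.65 ± 0.21, adjusted p = 1.5e-05). *Col4a1*, whose chain assembles with that of *Col4a2*, was at 0.501 ± 0.159 RPKM on day 35 and 3.30 ± 0.44 RPKM on day 3 (-1.93 ± 0.20, adjusted p = 1.9e-07), but at day 7 it was still at 2.36 ± 0.12 RPKM. The ratio of *Col4a1* to *Col4a2* was 6.74, 4.84 and 3.00 at day 7 and 1.34, 1.03 and 1.29 at day 3 (exact permutation test, two-sided p = 0.1, the smallest possible). In untreated cells of day 35 it was 5.21, 6.04 and 5.94. In vehicle cells the ratio per length lay the other way, at 0.845, 0.722 and 0.710 on day 35 and 0.987, 1.14 and 1.04 on day 3, again with no overlap and the smallest possible p (0.1, exact permutation test). *Col10a1*, the collagen of hypertrophic cartilage, was at 0.302, 0.154 and 0.202 RPKM at day 35, against 1.34, 1.21 and 1.11 RPKM at day 3 (-1.26 ± 0.20, adjusted p = 2.1e-05).

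*Col8a1*, a type VIII chain, had the second highest RPKM of the family from day 3 to day 28. Its means over the 6 days were 139.7, 220.0, 221, 269, 262 and 99.2 RPKM. It rose at day 21 (0.95 ± 0.25, adjusted p = 0.0056) and day 28 (0.88 ± 0.25, adjusted p = 0.0081), and the step between days 28 and 35 was -1.40 ± 0.25 (adjusted p = 0.0045). *Col8a2*, its partner, also rose at day 21 (1.64 ± 0.58, adjusted p = 0.031) and day 28 (1.50 ± 0.58, adjusted p = 0.043), with wide errors. On every day its replicate 1 library was below the other libraries, by a mean of 1.42 (log2), for example 33.2 RPKM against 93.3 and 82.7 RPKM at day 21. Within the run of replicate 1 the *Col8a2* changes were 1.67 at day 21 and 1.67 at day 28, and the adjusted p were 0.00038 and 0.00065 once sequencing run was a term of the fit. As listed, the day 21 call was lost without day 3 replicate 1, day 21 replicate 2 or day 21 replicate 3 (adjusted p = 0.16, 0.12 and 0.10). The day 28 call was lost without day 3 replicate 1, day 28 replicate 2, day 28 replicate 3 or day 35 replicate 3 (adjusted p between 0.053 and 0.21).

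Of the 3 FACIT genes tested, 1 fell at day 35. *Col12a1*, a fibril-surface collagen of tendon and periosteum, was at 2.69, 2.33 and 2.33 RPKM at day 35, against 21.4, 19.6 and 18.7 RPKM at day 3 (-2.79 ± 0.18, adjusted p = 6.03e-10). Nearly all of that was in place by day 7, when the libraries had 3.87, 3.65 and 3.63 RPKM (-2.27 ± 0.18, adjusted p = 4.6e-08), and the later means lay between 2.45 and 3.59 RPKM. *Col14a1* rose at day 21, to 2.44, 2.44 and 2.50 RPKM, against 1.29, 0.97 and 1.09 RPKM at day 3 (0.88 ± 0.23, adjusted p = 0.0051). It was at 0.275 ± 0.153 RPKM by day 35, a change of -1.07 from day 3 that was called as listed and not after centring (-0.25, adjusted p = 0.22). *Col16a1* had means between 9.39 and 21.1 RPKM. Its change at day 35 was -1.07, without overlap, and was called as listed (adjusted p = 0.020) and not after centring (-0.25, adjusted p = 0.57). Within the run of replicate 1 this change was -0.49. The replicate 1 library of *Col16a1* lay below the mean of the others by 0.76 (log2) on average.

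Among the remaining kinds, *Col18a1* had a course of its own. This basement membrane collagen, whose end fragment is endostatin, was at 6.61, 6.94 and 7.08 RPKM at day 7, against 1.61, 1.87 and 1.11 RPKM at day 3 (1.88 ± 0.28, adjusted p = 6.8e-05). The change was 1.97 ± 0.28 at day 14 and 0.93 ± 0.28 at day 21 (adjusted p = 2.4e-05 and 0.012). By day 28 the mean was back at 1.26 ± 0.303 RPKM (SD, n = 3). The chains of type VI, which form beaded filaments around cells, were led by *Col6a1*. In untreated cells it had the highest RPKM of the family on every day but the last. It was at 163 ± 46.6 RPKM on day 35 and 271 ± 27.0 RPKM on day 3 (SD, n = 3 each). *Col6a1* and *Col6a2* kept a ratio with means between 4.82 and 5.92 over the 6 days. *Col6a3* fell, at 10.3, 6.99 and 6.88 RPKM on day 35 against 20.6, 21.7 and 21.1 RPKM on day 3 (-1.36 ± 0.20, adjusted p = 1.3e-05), whereas the changes of *Col6a1* (-0.77) and *Col6a2* (-0.58) lay at 0.05 and 0.24 after centring. The *Col6a1* change was -0.18 within the run of replicate 1.

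At the intermediate days the calls were fewer. By the rule of both scales, 1 member rose and 5 fell at day 7 (15.3% and 9.81% of all genes), 1 rose and 6 fell at day 14 (14.4% and 15.2%), 5 rose and 6 fell at day 21 (12.9% and 21.2%), and 5 rose and 6 fell at day 28 (10.4% and 21.9%). As listed alone, 6, 8, 12 and 13 members were called on these days, where 25.7%, 29.7%, 37.0% and 41.5% of all genes were. By a limma F test across all 6 days, as listed, 19 members changed where 72.5% of all genes did. *Col1a2*, *Col8a2*, *Col11a1* and *Col16a1* were those that this F test did not call. The count at day 7 was 3 without any 1 of the day 3 libraries and 10 without day 35 replicate 3, and the count at day 14 was 5 without day 3 replicate 1 or 2.

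The replicate number as a block of the fit added calls on 3 of these days. At day 7 it called 9 members, the added ones being *Col1a1* (-0.66, adjusted p = 0.022 with the block and 0.051 without), *Col2a1* (0.78, adjusted p = 0.024 and 0.070) and *Col8a2* (0.86, adjusted p = 0.011 and 0.28). At day 14 it called 9, with *Col5a3* added (-0.61, adjusted p = 0.031 and 0.056), at day 21 the same number of 12, and at day 28 14, with *Col3a1* added. With the block and centring together, 18 members were called at day 7 and 13 at day 14.

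The members that fell by day 7 were mostly called lower on the next days too. At days 14, 21 and 28 the changes from day 3 were -2.32, -2.48 and -2.40 for *Col12a1*, with adjusted p of at most 2.3e-08. They were -1.78, -1.70 and -1.78 for *Col4a2* and -1.68, -1.52 and -1.95 for *Col27a1* (adjusted p of at most 1.1e-05 for both genes). *Col5a1* changed by -1.48 at day 7 and by -1.52, -1.04 and -1.04 at days 14, 21 and 28 (adjusted p of at most 0.0020 as listed), the last of which was not called after centring (adjusted p = 0.053). Other chains fell on some of these days. *Col4a1* fell on days 14, 21 and 28 (-0.97, -0.75 and -1.09, adjusted p of at most 0.0067), and *Col6a3* fell on days 14 and 21 (-0.75 and -0.67, adjusted p = 0.0088 and 0.014). *Col24a1* and *Col5a3* fell at day 28 (-1.02 and -0.90, adjusted p = 0.00093 and 0.0043), and *Col10a1* at day 7 (-0.65, adjusted p = 0.022). With sequencing run as a term of the limma fit, 2 of these calls were lost. They were *Col5a3* at day 28 (-0.65, adjusted p = 0.054) and *Col6a3* at day 21 (-0.62, adjusted p = 0.052). Within the run of replicate 1 these changes were -0.21 and -0.54.

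The chains of types I, II and III were called on few of these days. *Col1a1* changed by -0.70 and -0.45 at days 14 and 21, the first called as listed (adjusted p = 0.037) and not after centring (adjusted p = 0.058), and it rose at day 28 (0.81, adjusted p = 0.011). *Col2a1* (2.48) and *Col11a2* (4.85) rose at day 28 as well, with adjusted p of 2.8e-06 and 1.7e-08, after changes of -0.11 and 0.21 for *Col2a1* at days 14 and 21 and of 0.29 and 0.12 for *Col11a2* at days 7 and 14 that were not called. As listed, no call was made on days 7 to 28 for *Col1a2* (-0.14 to 0.54), *Col5a2* (-0.43 to 0.40) or *Col11a1* (-0.44 to -0.13), nor for *Col3a1* on days 7, 14 and 21 (-0.24, -0.10 and -0.24). After centring, *Col5a2* was called lower at days 7 and 14 and higher at day 28, and *Col1a2* higher at day 28. *Col5a3* changed by -0.56 at day 7 and by -0.61 at day 21 (adjusted p = 0.090 and 0.049), the second not called after centring. *Col10a1* was not called on days 14, 21 and 28 (-0.25, -0.39 and -0.08).

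In sums per library, the fibrillar share of all collagen RPKM was 60.8%, 56.4% and 64.4% at day 35, against 43.1%, 37.8% and 35.2% at day 3 (exact permutation test, two-sided p = 0.1, the smallest possible). Its mean was lowest at day 7, at 25.7 ± 1.9%. The network share was highest at day 21 (33.9 ± 2.7%), most of it *Col8a1*, and the FACIT share was 1.45 ± 0.24% at day 35 and 4.69 ± 0.38% at day 3 (SD, n = 3 each). The total of all collagen RPKM was 898 ± 176 at day 35 and 899.9 ± 52.1 at day 3. These shares are of untreated RPKM alone. In day 3 vehicle cells, *Col3a1* and *Col1a2* held 21.3% and 20.9% of collagen CPM per kilobase, against 4.32% and 5.33% of untreated RPKM that day. *Col8a1* held 5.82% there, against 15.5% of untreated RPKM.

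*Col17a1*, a transmembrane collagen of epithelial attachment, was at 0.149 ± 0.0155 RPKM on day 35 and 0.457 ± 0.0528 RPKM on day 3 (SD, n = 3 each), *Col23a1* had at most 0.581 RPKM in any library and *Col25a1* at most 0.262 RPKM. None of the 4 transmembrane genes reached the RPKM limit, and among the 19 untested members the highest single value was 1.46 RPKM, of *Col20a1*. *Col13a1*, a collagen of cell adhesion sites, was listed at 0 in all libraries of days 3, 7 and 21, and at 0.214, 0.142 and 0.124 RPKM at day 35. *Col15a1*, a basement membrane relative of type XVIII, was at 0.393, 0.141 and 0.123 RPKM at day 35 and at 0.022, 0.072 and 0.011 RPKM at day 3. *Col22a1*, a FACIT collagen of tissue junctions, was at 0.098, 0.087 and 0.085 RPKM at day 35 and at 0.009, 0 and 0 RPKM at day 3. *Col4a6*, a basement membrane chain, went the other way, at 0.056, 0.104 and 0.027 RPKM on day 35 and 0.548, 0.744 and 0.634 RPKM on day 3. These 4 genes separate days 35 and 3 without overlap, but no test was made in untreated cells.

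The vehicle cells gave a second view of day 35 against day 3. Of the 42 members, 16 rose (15.5% of all genes) and 10 fell (14.5%). The fibrillar genes made up 8 of the increases, with a median change of 1.46 over the 11 genes and 0.17 over all genes tested, while 1 network gene rose and 4 fell. *Col1a2* was at 20895, 31660 and 33347 CPM at day 35, against 5251, 5556 and 5141 CPM at day 3 (2.43 ± 0.20, adjusted p = 2.2e-07). *Col1a1* was at 7976, 7258 and 7341 CPM at day 35, against 1138, 3392 and 1668 CPM at day 3 (1.86 ± 0.34, adjusted p = 0.00068). *Col5a1* (1.13 ± 0.15), *Col5a2* (1.25 ± 0.18), *Col11a1* (1.46 ± 0.16) and *Col24a1* (1.58 ± 0.20) rose too, with adjusted p between 4.09e-06 and 6.25e-05.

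The members that were barely detected at day 3 changed most. *Col13a1* had 50.2, 70.3 and 78.3 CPM at day 35, against 0, 0 and 0.0917 CPM at day 3, where all 3 libraries held 4 counts together (10.91 ± 0.50, adjusted p = 1.03e-09). *Col11a2* had 238, 332 and 389 CPM at day 35, against 1.54, 0.0226 and 0.55 CPM at day 3 (8.84 ± 0.63, adjusted p = 5.3e-08). *Col22a1* had 16.6, 28.7 and 31.2 CPM at day 35, against 0.463, 0 and 0 CPM at day 3 (7.38 ± 0.69, adjusted p = 9.4e-07). *Col15a1* had 37.6, 32.6 and 36.4 CPM at day 35, against 0.878, 0.947 and 1.24 CPM at day 3 (5.12 ± 0.35, adjusted p = 4.1e-08). All of these groups lie apart, and the day 3 libraries held 88 counts of *Col11a2*, 19 of *Col22a1* and 132 of *Col15a1* in all, so the size of these changes is loosely set.

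*Col2a1* had 155 counts in the 3 day 35 vehicle libraries and 0 in those of day 3, which is at least 76.3-fold higher when 3 counts are taken as the limit for the day 3 group. It and *Col18a1* are among 5 members listed on more than 1 row in the hormone files, and symbols with several rows had a median of -3.25 for log2 of day 3 vehicle CPM per kilobase over untreated RPKM, where those with 1 row had 1.34. The level of such genes is therefore not set beside that of others. *Col18a1* rose at day 35 by 1.96 ± 0.31 (adjusted p = 0.00020), at 10.6 ± 1.4 CPM on day 35 and 2.73 ± 1.21 CPM on day 3. *Col9a2* (2.54 ± 0.61) and *Col23a1* (2.41 ± 0.23) rose as well, while *Col28a1* fell by 1.68 ± 0.59 (adjusted p = 0.044), a call that leaving out any 1 of 8 libraries ended.

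*Col4a6* fell furthest in vehicle cells, at 3.57, 4.22 and 3.47 CPM on day 35 against 40.4, 27.3 and 33.3 CPM on day 3 (-3.16 ± 0.25, adjusted p = 1.9e-07). *Col4a1* changed by -1.04 ± 0.16 and *Col4a2* by -0.56 ± 0.14 (adjusted p = 0.00013 and 0.0050), and *Col27a1* by -1.47 ± 0.19 (adjusted p = 3.3e-05). *Col14a1* (-1.32 ± 0.23), *Col5a3* (-1.25 ± 0.23), *Col12a1* (-0.89 ± 0.17) and *Col6a3* (-0.43 ± 0.15) also fell, with adjusted p of 0.00035, 0.00073, 0.00087 and 0.044. *Col3a1* was at 5393, 5659 and 6644 CPM on day 35 and 6197, 5129 and 5582 CPM on day 3. Its groups overlap, and the change of 0.07 ± 0.17 was not called (adjusted p = 0.82). *Col10a1* was at 31.8, 17.9 and 14.1 CPM on day 35 and 8.59, 14.3 and 10.7 CPM on day 3, and its change of 0.93 ± 0.40 was not called either (adjusted p = 0.094).

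**Figure D3:**
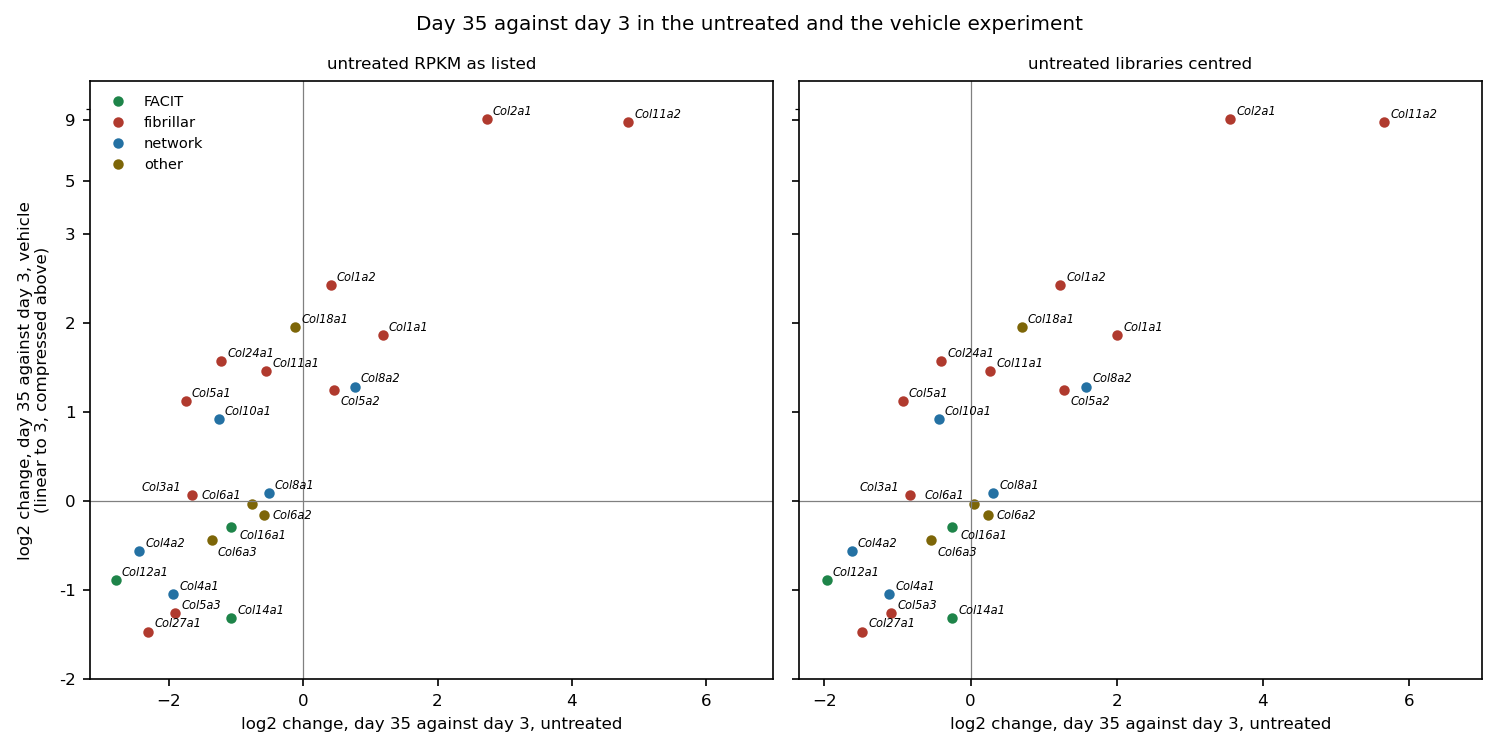
log2 change at day 35 against day 3 in untreated cells (x axis, RPKM as listed on the left, libraries centred on the right) and in vehicle cells (y axis, linear up to 3 and compressed above) for the 23 collagen genes tested in both, coloured by class. Most points lie in the lower left and upper right, and *Col5a1* lies in the upper left on both sides. The vehicle value of *Col2a1*, with 0 counts at day 3, depends on the fit.

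Of the 23 members tested in both experiments, 13 were called in both at day 35 as listed, 10 in the same direction and 3 in opposite directions. The opposite ones were *Col5a1*, *Col11a1* and *Col24a1*, all higher in vehicle cells. With centred untreated libraries, 14 were called in both, 13 in the same direction, and only *Col5a1* went opposite ways. In vehicle cells *Col5a1* was at 1344, 1656 and 1586 CPM on day 35 against 642, 811 and 648 CPM on day 3. The order of the type I chains also differed between the experiments. CPM per kilobase were 1269 for *Col1a1* and 5354 for *Col1a2* in vehicle cells at day 35, where untreated cells had 261 and 66.9 RPKM. At day 3, *Col6a1* and *Col8a1* ranked 1 and 2 in the family by RPKM in untreated cells. By CPM per kilobase in day 3 vehicle cells they ranked 6 and 7, and *Col3a1* and *Col1a2* ranked 1 and 2. Library kit and experiment cannot be told apart.

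Marker genes were set beside the label of osteocytic cells in both experiments. The 6 osteoblast markers summed to 211 to 483 RPKM at day 35 and 26.5 to 29.0 RPKM at day 3. *Bglap* and *Alpl* were the largest parts at day 35, with means of 146 and 119 RPKM. *Runx2* was at 0.297 ± 0.172 RPKM on day 35 and 0.446 ± 0.00458 RPKM on day 3 (SD, n = 3 each), while the other markers had higher means at day 35. The 6 osteocyte markers summed to only 0.279 to 1.38 RPKM at day 35 and 0.601 to 1.07 RPKM at day 3, with *Fgf23* at 0 on both days. In vehicle cells they summed to 427 to 562 CPM at day 35 and 107 to 133 CPM at day 3. Endothelial markers, a cell type that makes much type IV and type XVIII collagen, summed to between 0 and 0.165 RPKM in every untreated library, with *Cdh5* at 0 throughout.

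Markers of other cell types were taken from lists as well. The 6 macrophage and osteoclast markers summed to 50.1 to 96.0 RPKM at day 35 and 24.7 to 26.0 RPKM at day 3 in untreated cells, and to 565 to 721 CPM at day 35 and 148 to 193 CPM at day 3 in vehicle cells. Nearly all of this was *Ctsk*, the collagen-degrading protease of osteoclasts, at 76.0 RPKM on day 35 and 24.1 RPKM on day 3 in untreated means and at 656 CPM on day 35 and 164 CPM on day 3 in vehicle means. *Emr1*, a defining macrophage marker, was at 0 in untreated cells on both days, and *Ptprc*, of blood cells in general, was at 0 in all hormone experiment libraries. The 5 tendon markers summed to 51.3 to 107 RPKM at day 35 and 66.0 to 69.9 RPKM at day 3, and in vehicle cells to 307 to 689 CPM and 182 to 695 CPM on those days, so these groups overlap. The 10 chondrocyte markers summed to 305 to 413 CPM at day 35 and 66.6 to 155 CPM at day 3 in vehicle cells, with *Ucma* at 0. The 4 muscle markers were all at 0 in untreated cells of day 35 and summed to 0.188 to 0.482 RPKM at day 3, and to 0.695 to 1.48 CPM at day 35 and 0.415 to 0.872 CPM at day 3 in vehicle cells. The 4 adipocyte markers summed to 1.03 to 1.35 RPKM at day 35 and 0 to 0.333 RPKM at day 3, and to 11.1 to 17.1 CPM at day 35 and 1.51 to 3.92 CPM at day 3 in vehicle cells. The part of such cells in the collagen results was not tested.

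1,25D3 given at day 35 changed 6 members, 5 lower and 1 higher, beside 2.14% of all genes lower and 2.41% higher. *Col15a1* was at 6.94, 8.28 and 8.31 CPM with 1,25D3, against 37.6, 32.6 and 36.4 CPM with vehicle (-2.18 ± 0.30, adjusted p = 0.00036). *Col13a1* was at 17.1, 19.5 and 26.4 CPM with 1,25D3, against 50.2, 70.3 and 78.3 CPM with vehicle (-1.66 ± 0.28, adjusted p = 0.0020). The hormone libraries of both genes lay below all vehicle libraries and above the day 3 level. *Col5a1* was at 830.3, 893 and 958 CPM with 1,25D3, against 1344, 1656 and 1586 CPM with vehicle (-0.77 ± 0.15, adjusted p = 0.0043). *Col11a1*, whose chain forms mixed fibrils with type V, was at 1817, 1439 and 1676 CPM with 1,25D3, against 2399, 2607 and 3150 CPM with vehicle (-0.73 ± 0.15, adjusted p = 0.011). *Col8a2* was at 479.8, 325 and 417 CPM with 1,25D3, against 625, 758 and 777 CPM with vehicle (-0.82 ± 0.19, adjusted p = 0.019). The single increase was *Col16a1*, at 207, 203 and 226 CPM with 1,25D3 and 130, 109 and 140 CPM with vehicle (0.74 ± 0.16, adjusted p = 0.012). Without hormone day 35 replicate 2 the calls of *Col11a1* and *Col8a2* were lost (-0.62 and -0.66, adjusted p = 0.082 and 0.11). The count of 6 was 2 without vehicle day 35 replicate 2, and *Col15a1* and *Col13a1* were the calls that no left-out library and no other setting tried ended.

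The main bone chains were not among the calls at day 35. *Col1a1* was at 4138, 5279 and 6531 CPM with 1,25D3 and 7976, 7258 and 7341 CPM with vehicle. All hormone libraries were below the vehicle ones, but the change of -0.50 (95% interval from the approximate SE and a normal distribution, -1.16 to 0.15) was not called (adjusted p = 0.59). *Col1a2* changed by -0.15 (-0.52 to 0.21) and *Col5a2* by -0.28 (-0.62 to 0.06). *Col3a1* changed by 0.10 (-0.24 to 0.44) and *Col11a2* by -0.44 (-1.27 to 0.40). *Col12a1* changed by -0.61 ± 0.17 without a call (adjusted p = 0.056), though it was called after subtraction of background reads (adjusted p = 0.034). The 6 osteoblast markers summed to 5754 to 6528 CPM with 1,25D3 and 12220 to 18591 CPM with vehicle, and their part in these results was not tested. *Col2a1* had 67 counts with 1,25D3 and 155 with vehicle, from libraries of unequal depth. This was 0.323, 0.667 and 0.614 CPM against 2.31, 1.01 and 1.96 CPM, without overlap, and the change of -1.72 ± 1.09 was not called (adjusted p = 0.56). *Col5a3* changed by 0.39 and *Col10a1* by 0.63, with adjusted p of 0.52 and 0.55. The ratio of *Col5a2* to *Col5a1* per length was 7.04, 6.29 and 6.31 with 1,25D3 and 4.19, 4.51 and 5.16 with vehicle, without overlap (exact permutation test, two-sided p = 0.1, the smallest possible).

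**Figure D4:**
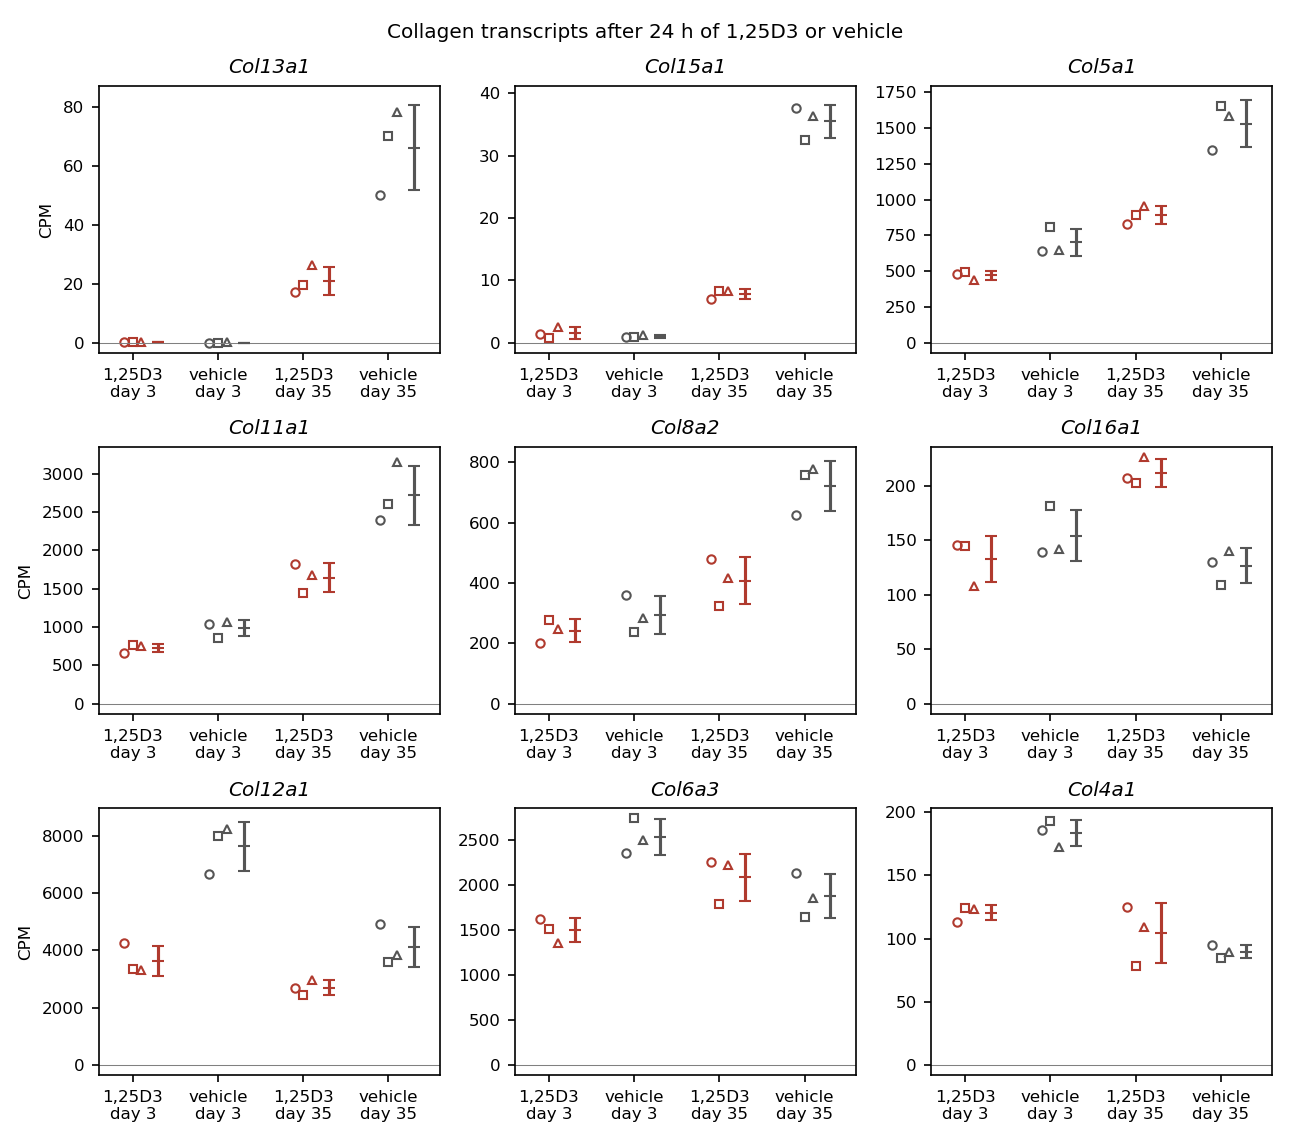
CPM (y axis, from 0) in cells given 1,25D3 (red) or vehicle (grey) for 24 h at day 3 or day 35, with a symbol for each of the 3 libraries and a bar for the mean ± SD. *Col13a1* and *Col15a1* are near 0 at day 3 and lower with 1,25D3 at day 35, *Col16a1* is higher with 1,25D3 at day 35, and *Col12a1*, *Col6a3* and *Col4a1* are lower with 1,25D3 at day 3.

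At day 3, 1,25D3 lowered 8 members and raised 3, beside 9.09% of all genes lower and 11.4% higher, with a median change of 0.26 over all genes. *Col12a1* was at 4243, 3341 and 3326 CPM with 1,25D3, against 6663, 8010 and 8251 CPM with vehicle (-1.07 ± 0.17, adjusted p = 0.00068). *Col6a3* was at 1627, 1512 and 1359 CPM with 1,25D3, against 2352, 2746 and 2502 CPM with vehicle (-0.76 ± 0.15, adjusted p = 0.0042). *Col14a1* was at 298, 214 and 199 CPM with 1,25D3, against 343, 491 and 446 CPM with vehicle (-0.85 ± 0.22, adjusted p = 0.019). In each of these the groups lie apart. *Col8a1* (-0.65 ± 0.16), *Col4a1* (-0.61 ± 0.16), *Col5a1* (-0.57 ± 0.14), *Col6a1* (-0.47 ± 0.15) and *Col4a2* (-0.43 ± 0.13) fell too, with adjusted p between 0.016 and 0.040. The calls of *Col6a1* and *Col4a2* were lost with DESeq2 size factors (adjusted p = 0.057 and 0.059) and with background subtracted (adjusted p = 0.068 and 0.075). Of the type I, III and V chains not called, *Col1a1* changed by -0.75 ± 0.34, *Col1a2*, *Col3a1* and *Col5a2* by -0.34 each, and *Col5a3* by -0.68 (adjusted p between 0.051 and 0.19). *Col11a1* changed by -0.45 and *Col10a1* by -0.81 without a call (adjusted p = 0.052 and 0.15), and *Col11a2* by 0.94 (adjusted p = 0.24).

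The 3 increases at day 3 were of genes with almost no reads. *Col13a1* was at 0.211, 0.312 and 0.329 CPM with 1,25D3, against 0, 0 and 0.0917 CPM with vehicle (3.08 ± 0.70, adjusted p = 0.0089). *Col9a1* held 64 counts with 1,25D3 and 0 with vehicle, and *Col2a1* held 10 counts with 1,25D3 and 0 with vehicle. A set of 1100 genes of olfactory receptors, the odour sensors of the nose, took 0.0501% to 0.0734% of the counts in these hormone libraries and 0.00401% to 0.00552% in their vehicle libraries. Per kilobase, that level would give *Col13a1* up to 0.53 CPM with 1,25D3 and up to 0.056 CPM with vehicle. With it subtracted, the change of *Col13a1* was -2.45 (adjusted p = 0.36), *Col2a1* was not called (adjusted p = 1) and *Col9a1* did not pass the filter. Adipocyte markers set 1 of these libraries apart, for *Fabp4*, a fatty acid carrier, was at 103 CPM and *Adipoq*, a fat cell hormone, at 28.9 CPM in hormone day 3 replicate 3, where the other hormone libraries of that day had at most 1.05 and 0.564 CPM. Its part in the results was not tested. The count of 11 became 6 after subtraction, 6 without vehicle day 3 replicate 2 and 3 without hormone day 3 replicate 3. In day 3 cells with 1,25D3, 13 of the 42 members had a mean below 2 times this level, against 6 in the vehicle cells of that day.

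**Figure D5:**
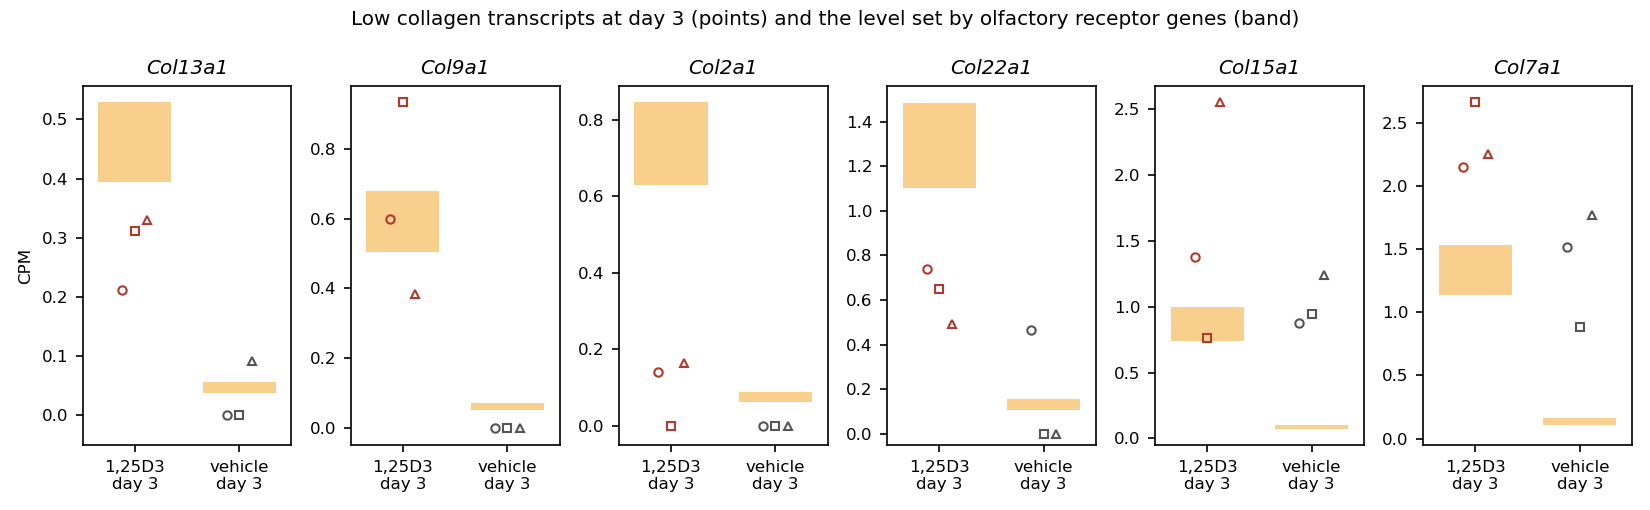
CPM of 6 low collagen genes at day 3 (points, 1 per library) in cells given 1,25D3 (red, left) or vehicle (grey, right), with a band for the CPM that the reads per kilobase on olfactory receptor genes would give. The bands are higher in the 1,25D3 cells, and the *Col13a1* and *Col2a1* points there lie below the band.

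Genes that modify, export and cross-link collagen were taken as a list of 34, of which 23 were tested in untreated cells and 26 in the hormone experiment. These sets differ. *P4ha2*, *Plod2*, *Lepre1* and *Fkbp10* were tested in untreated cells only, so their absence from the hormone experiment results is not a lack of change. *Pcolce2*, *Leprel1*, *Adamts14*, *Glt25d2*, *Crtap*, *Plod1* and *Loxl1* were tested in the hormone experiment only. At day 35 in untreated cells 4 rose and 4 fell on both scales (5.63% and 21.5% of all genes), with a median of -0.51 as listed beside -0.69 for all genes. The increases with the largest changes were *P4ha2* (1.73) and *Leprel2* (1.13), a prolyl 4-hydroxylase subunit and a prolyl 3-hydroxylase family member, and *Serpinh1* (0.92), the collagen chaperone of the secretory pathway. The decreases were led by *Lox* (-3.96), a cross-linking oxidase, *P4ha3* (-3.44), another prolyl hydroxylase subunit, and *Plod2* (-2.73), a lysyl hydroxylase. In vehicle cells 11 rose and 2 fell at day 35 against day 3 (15.5% and 14.5% of all genes), led by *Pcolce2* (3.29), an enhancer of propeptide cleavage, *P4ha1* (2.71) and *Ctage5* (1.99), an export factor, against *Leprel1* (-1.28) and *P4ha3* (-1.16).

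With 1,25D3 at day 35, 2 of these 26 genes rose and 4 fell (2.41% and 2.14% of all genes). *Adamts14*, a propeptide-cleaving protease, changed by 1.77 and *Loxl2*, another cross-linking oxidase, by 1.35, against -2.77 for *Pcolce2*, -1.95 for *Ctage5* and -0.64 for *P4ha1*. With 1,25D3 at day 3, 1 rose and 4 fell (11.4% and 9.09% of all genes). The increase was of *Glt25d2*, a collagen galactosyltransferase (2.95 ± 0.89, adjusted p = 0.034). It was not set against the olfactory level that is raised in these hormone libraries. The decreases were led by *Lox* (-1.41), *Tll1* (-0.93), a propeptide protease, and *Sec24d* (-0.91), a coat protein of export vesicles. The difference between the responses was called for *Loxl2* (2.09) and *Adamts14* (1.91), which were higher in the day 35 response, and for *Pcolce2* (-3.07), beside 4.14% of all genes positive and 2.94% negative.

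The response to 1,25D3 itself differed between the days for 5 members by the test of the difference (day 35 minus day 3), 3 of them positive and 2 negative, beside 4.14% and 2.94% of all genes. *Col6a3* (0.91 ± 0.22, adjusted p = 0.019) and *Col4a1* (0.83 ± 0.22, adjusted p = 0.036) were lower with the hormone at day 3 and not called at day 35 (0.15 and 0.22). *Col16a1* (0.96 ± 0.23, adjusted p = 0.018) was higher with it at day 35 and not called at day 3. *Col15a1* (-2.80 ± 0.45, adjusted p = 0.0011) and *Col13a1* (-4.74 ± 0.74, adjusted p = 0.00096) had a negative difference, but the day 3 libraries with 1,25D3 held few reads of either gene beyond the olfactory level, and with that level subtracted the differences were -1.79 (adjusted p = 0.20) and 0.84 (adjusted p = 0.66). *Col5a1*, lower on both days, had a difference of -0.20 ± 0.20 (adjusted p = 0.58). Nor were other chains of the fibrillar types and type X called. The difference was 0.24 for *Col1a1*, 0.18 for *Col1a2*, 0.44 for *Col3a1* and 0.06 for *Col5a2* (adjusted p between 0.29 and 0.91), and 1.06 for *Col5a3* (adjusted p = 0.064). It was 1.44 for *Col10a1*, -0.28 for *Col11a1* and -1.38 for *Col11a2* (adjusted p = 0.14, 0.46 and 0.26). *Col2a1* was not called (adjusted p = 0.050), and with 0 counts in day 3 vehicle libraries its fitted difference depends on the fit. The count of 5 was 2 without hormone day 3 replicate 3, 10 without vehicle day 3 replicate 1, 8 without vehicle day 35 replicate 1 and 12 without hormone day 35 replicate 2. The share of olfactory reads in that last library was 0.0425%, against 0.00273% to 0.0149% in the other day 35 libraries.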

How the data were processed

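The submitters aligned reads with TopHat to mm9, per the submitters' processing notes (versions not given in the sources used here). The 18 untreated files hold RPKM as deposited by the authors. The 12 hormone files were deposited under an RPKM name but hold whole-number counts, read as raw counts from their values. Symbols on several rows were reduced to the row with the highest mean (RPKM) or the sum (counts). RPKM were tested with limma (3.58.1, trend) on log2(RPKM + 0.5), a scale that understates the change of low genes, over all 18 libraries and genes with at least 1 RPKM in 3 libraries; read depth behind the RPKM is unknown. For the counts, genes kept by filterByExpr entered a TMM-scaled quasi-likelihood fit in edgeR (4.0.16) over all 12 libraries. P-values were two-sided and Benjamini-Hochberg adjusted over all genes, called below 0.05. DESeq2 (1.42.0), R 4.3.3. Lengths came from GENCODE vM21 exons; scripts were tested on simulated data. The members, classes, marker and processing lists were chosen with earlier results of these data known. In each comparison the text names called members whose groups lie apart, up to 12 by size, and chains of types I, II, III, V, X, XI and XIII whatever their result. Replicate numbers were taken to pair the untreated samples of days 7 to 28, where same-numbered libraries correlated with day 3 at 0.181 to 0.584. The highest of these, 0.469 to 0.584, were of replicate 1, where pairing and sequencing run cannot be told apart. Deviations were taken from group means, so an offset of replicate 1 also enters the values of the other replicates. These correlations alone therefore cannot show pairing. The main fits used day means alone and no pairing, and the replicate block entered only where stated.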

Additional observations from a re-analysis of the deposited data

Results flagged for a closer look

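The 5 members below are listed because the response to 1,25D3 differed between day 35 and day 3 by the edgeR interaction test. The difference (day 35 minus day 3, log2) was 0.83 for *Col4a1*, 0.91 for *Col6a3*, 0.96 for *Col16a1*, -2.80 for *Col15a1* and -4.74 for *Col13a1*. For *Col13a1* and *Col15a1* the value rests on 29 and 159 counts at day 3 with 1,25D3 and 4 and 132 counts with vehicle.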

How the results depend on the processing

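With libraries centred, the members called at day 7 numbered 15, as with quantile normalization, and 17 with the sequencing run also in the model. With the replicate block and centring together they numbered 18 at day 7 and 13 at day 14, and with the block alone 9 and 9; at days 21 and 28 the block alone gave 12 and 14. As listed, it changed no call of a member on these days beyond the added ones named above. At day 3 with 1,25D3, 17 members were called by DESeq2, 6 with background reads subtracted and 7 from the day 3 libraries alone. The response difference gave 11 calls by DESeq2 and 8 with no filter on low counts. Background subtraction turned *Col13a1* to -2.45 at day 3 and its response difference to 0.84. With the replicate block, vehicle day 35, 1,25D3 day 3, 1,25D3 day 35 and the response difference gave 23, 8, 6 and 4 calls. Replicate numbers there were not taken to pair the samples. Same-numbered libraries correlated at 0.369, 0.526 and -0.007 between 1,25D3 and vehicle at day 35. In vehicle cells over days and with 1,25D3 at day 3, the correlations lay between -0.192 and 0.004. Leaving out 1 library gave 3 to 10 calls at day 7, 5 to 9 at day 14, 8 to 12 at day 21, 9 to 14 at day 28, 13 to 19 at day 35 and 17 to 20 over all days. It gave 23 to 26 for vehicle cells, 3 to 15 for 1,25D3 at day 3, 2 to 6 at day 35 and 2 to 12 for the difference. Of 642 values of single genes under other settings, 605 kept direction and call, 35 lost the call and 2 reversed, and of 1266 without 1 library, 1186 kept both and 80 lost the call. The causes were not tested. Depth is unknown for RPKM, and few counts limit the lowest genes.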
